A study of Mus musculus with 12 samples.

Results

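Described here are 10 immediate early genes, Egr1, Egr2, Egr3, Fos, Fosb, Fosl1, Fosl2, Jun, Junb and Ier2, taken by symbol from the 20325 genes measured. Such genes are transcribed within minutes of a growth factor or stress signal without the need for new protein. In the classical route, growth factors in serum activate the kinases MEK and ERK, and ERK phosphorylates the ternary complex factors that sit with serum response factor on the promoters of Egr1 and Fos. Egr1, Egr2 and Egr3 encode zinc-finger transcription factors, whereas a Fos protein and a Jun protein pair to form the AP-1 transcription factor, and Jun proteins are also driven by the stress kinase JNK. Ier2 encodes a small nuclear protein induced by the same signals. An inhibitor of MEK, 1 of the agents added here, blocks this route.

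The cells were mouse pre-iPSCs, a line stalled late in reprogramming, grown for 48 h in serum-containing ESC media off the feeder layer. They received DMSO, ascorbic acid (AA, 50 µg/ml), 2i (MEK inhibitor at 1 µM and GSK inhibitor at 3 µM) or AA+2i. Each condition had 3 biological replicates, lettered A, B and C, which made 12 libraries. All conditions share the same background: such lines were picked from Nanog-GFP reporter embryonic fibroblasts that carried retroviral Oct4, Sox2, c-Myc and Klf4, in colonies without GFP. They therefore speak for 1 stalled line and for 1 time point, and in bulk RNA fewer expressing cells and less RNA per cell cannot be told apart.

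Library totals ran from 16173322 to 54392719 expected counts. Of 8 genes fixed as markers of the line, 6 were at 1 TPM (a transcript's level scaled to the library total and by transcript length) or more in every library, among them Pou5f1, Sall4 and Epcam, whereas Fut4 stayed under 1 TPM. Of 11 fibroblast markers, 6 were under 1 TPM in every library and Lum was at 0 in all 12. Their summed level was 9.38 to 22.9 TPM. The 8 markers of the line summed to 10500 TPM in DMSO B, against at most 5120 TPM in any other library. As measured, a pair of libraries stood apart. Of the 13400 genes with enough counts to test, 25.4% had their highest value in DMSO A and 22.3% in AA+2i C. The share was at most 9.29% in any other. After a correction for the GC content of transcripts, the shares were 16.3% in DMSO A, 15.5% in DMSO B and 17.1% in AA+2i C. AA+2i C was also the highest library for 5 of the 7 genes tested here, so fitted changes that include it are also given without it.

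In mm9, the Fos gene spans chr12:86814840-86818223, Fosb chr7:19888070-19895394, Jun chr4:94715725-94718913, and Junb and Ier2 chr8:87500811-87502617 and chr8:87185230-87186751. The sequences below show which of the classical signal-responsive letters lie just upstream of these genes. They were read from RefSeq promoters (GRCm38.p6, whereas the expression files use mm9), which held 6 of the 10 genes with a window used here, the 250 bases before the annotated transcript start. Fos, Fosb and Junb are shown because they were among the genes that varied most between libraries. Egr2 is shown because, of these 6, it alone held a CArG box, the site of serum response factor, in this window. Sites farther upstream were not searched, so a window without a CArG box, as for Fos, does not mean a gene without one. Capitals mark the matched motifs on either strand.
Fos, chr12:85473640-85473889, plus strand: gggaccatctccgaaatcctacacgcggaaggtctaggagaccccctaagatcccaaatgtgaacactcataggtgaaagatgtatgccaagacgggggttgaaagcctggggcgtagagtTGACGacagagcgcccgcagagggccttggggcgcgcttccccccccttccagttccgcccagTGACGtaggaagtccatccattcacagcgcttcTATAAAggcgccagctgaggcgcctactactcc
Fosb, chr7:19310046-19310295, minus strand: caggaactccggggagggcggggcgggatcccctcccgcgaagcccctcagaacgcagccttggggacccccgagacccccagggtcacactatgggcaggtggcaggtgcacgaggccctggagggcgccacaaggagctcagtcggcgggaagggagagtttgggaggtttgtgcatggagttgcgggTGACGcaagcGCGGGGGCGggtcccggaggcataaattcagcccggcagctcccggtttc
Junb, chr8:84978749-84978998, minus strand: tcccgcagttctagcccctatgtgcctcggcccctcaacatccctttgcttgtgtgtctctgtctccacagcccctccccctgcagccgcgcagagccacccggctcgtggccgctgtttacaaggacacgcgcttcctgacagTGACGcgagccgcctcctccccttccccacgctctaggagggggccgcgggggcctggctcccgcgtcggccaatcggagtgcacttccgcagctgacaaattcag
Egr2, chr10:67537619-67537868, plus strand: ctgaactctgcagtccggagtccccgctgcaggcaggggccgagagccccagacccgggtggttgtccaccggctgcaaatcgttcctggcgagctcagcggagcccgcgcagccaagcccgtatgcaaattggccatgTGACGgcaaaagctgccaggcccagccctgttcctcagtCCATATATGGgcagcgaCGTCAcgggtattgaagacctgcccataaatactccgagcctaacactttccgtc

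In Fos, the capitals are a pair of cyclic AMP response element half-sites (TGACG), at -129 to -125 and -66 to -62 from the transcript start, and a TATA box (TATAAA) at -33 to -28. The Junb window held 1 such half-site, at -106 to -102. The Fosb window held 1 at -60 to -56, followed at -50 to -42 by an Egr site (GCGGGGGCG). In this Egr2 window, 1 of 5 annotated starts, the CArG box lay at -72 to -63 between a pair of half-sites. Half-sites were found for 4 of the 6 genes, Egr2, Fos, Fosb and Junb, and in 17.8% of the 32851 promoters of the table. The Egr site was found for Fosb and Fosl2 and in 2.57% of all promoters. The CArG box was in 1.47% of all promoters and the TATA box in 12.4%. An Ets core (CCGGAA) was found in another Egr2 window and in 12% of all promoters, and in that window 2 of the 3 matches overlap. The full element (TGACGTCA, which contains the half-site), the AP-1 site (TGACTCA) and the variant Egr site (GCGTGGGCG) were in none of the 6, against 1.55%, 4.46% and 0.536% of all promoters. These matches describe letters in a short window only, and the shares count single windows, whereas Egr2 was searched in 5.

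**Figure D1:**
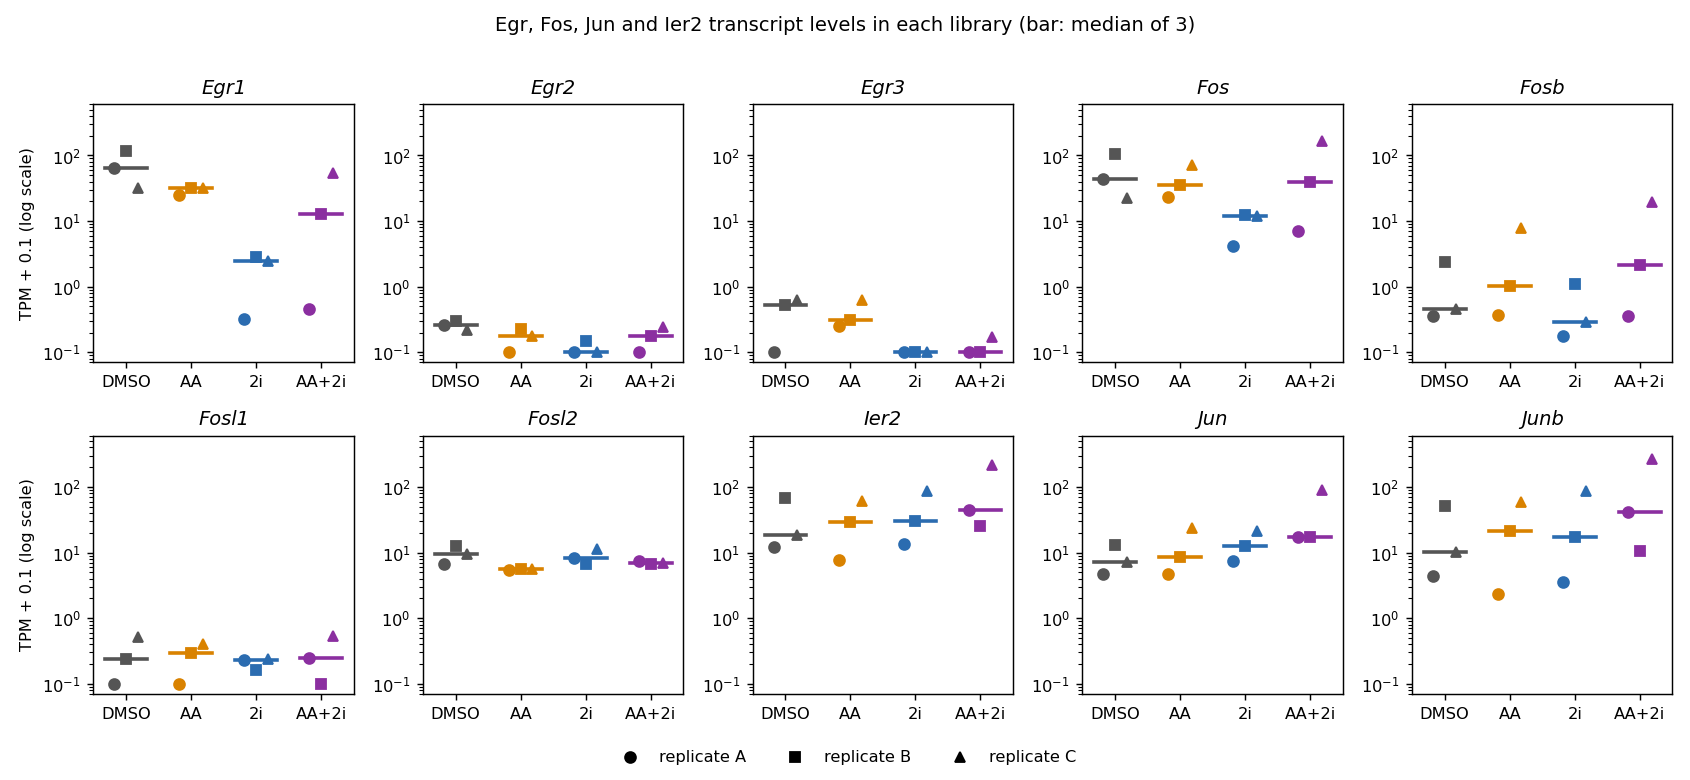
TPM of each of the 10 genes in the 12 libraries, on a log axis after adding 0.1, with 1 symbol per replicate letter and a bar at the median of 3. Egr1 lay between 0.22 and 2.72 TPM in the libraries with 2i alone and between 25.2 and 116 TPM with DMSO or AA, and AA+2i C is the highest of the 12 libraries for Fos, Fosb, Jun, Junb and Ier2.

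Egr1 was the most abundant Egr gene and the one with the widest range, 8.50 in log2 CPM (counts scaled to the library total) from the lowest to the highest library. With DMSO it was at 63.7, 116 and 31.9 TPM in replicates A, B and C, and with AA at 25.2, 32.05 and 31.7 TPM. With 2i it was at 0.22, 2.72 and 2.32 TPM. All 3 libraries with 2i lay below all 3 with DMSO, with log2 differences of -7.88, -5.03 and -3.57 in A, B and C. The lowest value rests on 7 counts. With AA+2i the replicates fell far apart, at 0.35, 12.6 and 54.8 TPM, so that A was near the lowest library with 2i and C was above all 3 libraries with AA.

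Fos, the founding member of the Fos family, was likewise lowest with 2i. It was at 43.5, 105 and 22.2 TPM with DMSO and at 23.6, 35.9 and 70.5 TPM with AA. The 3 libraries with 2i, at 4.06, 12.1 and 11.8 TPM, again lay below all those with DMSO. With AA+2i, Fos was at 6.99, 39.3 and 167 TPM, a span of 23.9 times from the lowest to the highest library, and C was the highest of all 12.

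Fosb, a close relative of Fos, was scarce in most libraries. It was at 0.26, 2.24 and 0.35 TPM with DMSO, 0.27, 0.91 and 7.66 with AA, and 0.08, 0.99 and 0.19 with 2i. With AA+2i it was at 0.26, 2.07 and 19.3 TPM. Only AA C and AA+2i C exceeded 3 TPM, and every pair of conditions overlapped.

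Fosl2, which encodes the Fos-related protein Fra2, varied least of the 7 genes with enough counts to test. Its standard deviation over the 12 libraries was 0.41 in log2 CPM, against 2.86 for Egr1. It was at 6.68, 12.3 and 9.43 TPM with DMSO and 8.03, 6.54 and 11.4 TPM with 2i, which overlap. With AA it was at 5.35, 5.46 and 5.50 TPM, below all 3 libraries with DMSO, and with AA+2i at 7.37, 6.62 and 6.75 TPM, above all 3 with AA, as 11.3% of all tested genes were.

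The Jun genes and Ier2 ran differently from Egr1 and Fos. Jun, the prototype partner of Fos, was at 4.67, 12.8 and 6.99 TPM with DMSO, 4.6, 8.59 and 23.5 with AA, and 7.34, 12.4 and 21.0 with 2i. With AA+2i it was at 17.3, 17.2 and 88.3 TPM, above every library with DMSO. Its levels with 2i alone overlapped those with DMSO.

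Junb, which encodes a Jun protein with weaker activating function than Jun, spread the most of this group within a condition. It was at 4.31, 51.8 and 9.94 TPM with DMSO, 2.27, 21.4 and 58.9 with AA and 3.49, 17.2 and 85.8 with 2i, whereas AA+2i gave 41.9, 10.5 and 263 TPM. Ier2 was at 12.2, 67.0 and 18.6 TPM with DMSO, 7.73, 29.6 and 61.8 with AA, 13.4, 30.1 and 86.2 with 2i, while the AA+2i libraries were at 44.9, 25.4 and 213 TPM. The conditions overlapped for both genes. A was the lowest replicate with DMSO, AA and 2i, but not with AA+2i, where B was lowest.

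Egr2, Egr3 and Fosl1 were near or at 0 and did not pass the count filter (at least 10 counts in 3 libraries), so 7 of the 10 genes were tested. Summed over the 3 libraries of a condition, Egr2 had 20 counts in DMSO, 14 in AA, 2 in 2i and 8.67 in AA+2i. Egr3, whose product works alongside Egr1, had 19 counts in DMSO and 19 in AA, against 0 in 2i and 1.33 in AA+2i. Set against 3 counts over the group, taken here as the limit that a count of 0 allows, Egr3 was 4.61-fold higher with DMSO than with 2i. No limit was set on the 19 counts themselves, so counting error is covered on the 2i side only and this is no lower bound. The 19 counts of DMSO came from B and C alone, since DMSO A also had 0. Fosl1, which encodes Fra1, stayed under 0.5 TPM in every library.

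To ask what 2i did to these genes, 2i was compared with DMSO and AA+2i with AA, which share no library. Expected counts were tested with edgeR's quasi-likelihood test, Benjamini-Hochberg adjustment ran over the 13400 genes, and an adjusted p under 0.05 counted as a call. With 2i against DMSO, Egr1 had a log2 fold change of -5.05 ± 1.39 (SE), the largest in size of the 7, with an adjusted p of 0.0701 in edgeR. Fos was at -2.33 ± 1.00 (adjusted p = 0.273). Neither passed: 0 of 7 were called, where 4.42% of all tested genes were, 2 of the 7 (Egr1 and Fos) had an unadjusted p under 0.05, as 16.1% of all genes did, and DESeq2 called 1, Egr1, with 5.04% of all genes called lower. Both also had non-overlapping groups, which 10.7% of all genes had in this direction.

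The call on Egr1 depended on the fit. The letters were taken to pair these libraries. The deviations of DMSO B from its group mean, however, followed those of 2i B less (r = 0.177) than those of 2i C (r = 0.565). With the letter as a block Egr1 fell by 5.63 ± 1.33 (adjusted p = 0.0228, edgeR), where 8.18% of tested genes fell, while Fos was at -2.72 ± 0.84 (adjusted p = 0.0614). Egr1 was called in 7 of its 9 alternatives that left out no library (with 0.881% of all genes called lower with only the groups compared, 7.29% with the GC correction, 14.2% with the block and GC correction, and 3.37% and 3.48% with limma at the larger and smaller pseudocount), with adjusted p from 0.00194 to 0.0721, and also without AA+2i A (0.0183) or AA+2i C (0.0425), which are in neither group but share the estimate of spread. Without any 1 library its change stayed between -5.49 and -4.52. The study described Egr1 as the gene that 2i lowered most, citing these same libraries and a supplementary figure that it elsewhere calls a time course. It chose Egr1 for follow-up on that basis, so the fall seen here is not independent evidence of that direction.

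The other 5 genes gave no clear change with 2i alone. Jun was at 0.99 ± 0.80, Junb at 1.05 ± 1.45, Ier2 at 0.72 ± 1.03, Fosl2 at 0.09 ± 0.26 and Fosb at -0.91 ± 1.59 (log2 fold change ± SE, adjusted p from 0.569 to 0.863). The sign of Junb and Ier2 rested on C: they differed by 3.28 and 2.39 in C but by -1.22 and -0.79 in B. Leaving out 1 library took Junb from -0.81 to 2.49. The median change of the 7 was 0.09, against -0.02 for all tested genes.

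In the presence of AA, the change of Egr1 with 2i depended on the letter and on the fit. Its letters gave -5.81, -1.28 and 1.09. The fitted change of AA+2i against AA was -0.09 ± 1.16 in edgeR, -0.89 with the letter block, and -1.60 ± 1.06 and -2.12 ± 1.42 with limma on log2(TPM + 1) and log2(TPM + 0.1), none of them called. In edgeR it was 0.99 ± 0.95 for Fos, whose letters gave -1.57, 0.20 and 1.54. Jun was higher in all 3 letters, by 2.07, 1.07 and 2.21, with a fitted change of 2.00 ± 0.82 (adjusted p = 0.228). Junb was at 2.21 ± 1.5, Ier2 at 1.78 ± 1.05, Fosb at 1.57 ± 1.5 and Fosl2 at 0.53 ± 0.26. With the correction for GC content, Jun was at 1.39 ± 0.48, Junb at 1.40 ± 0.86 and Ier2 at 1.06 ± 0.52. Again 0 of 7 were called by edgeR or DESeq2, against 6.1% of all genes, and 1 (Jun) had an unadjusted p under 0.05, as 17.0% of all genes did. With the letter block, in a comparison where the letters were not shown to pair the libraries, Jun alone was called, where 6.72% of all genes rose, and 12.6% rose with the block and the GC correction together. The median of the 7 was 1.57, against -0.01 for all genes.

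Much of this rested on AA+2i C. Without it, the changes of AA+2i against AA were -2.11 ± 1.19 for Egr1, -0.83 ± 0.83 for Fos, -1.29 ± 1.48 for Fosb, 0.57 ± 0.67 for Jun, -0.01 ± 1.46 for Junb and 0.16 ± 0.97 for Ier2. None was called, and the median of the 7 was -0.01, against -0.02 for all genes. Egr1, Fos and Fosb then lay on the negative side. AA+2i C had been singled out as the highest library for 5 of the 7 genes, so lower values without it were set in advance. The shared sign with 2i alone is therefore no separate support. With AA+2i A or B left out instead, Egr1 was at 0.49 ± 0.86 and 0.24 ± 1.32.

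**Figure D2:**
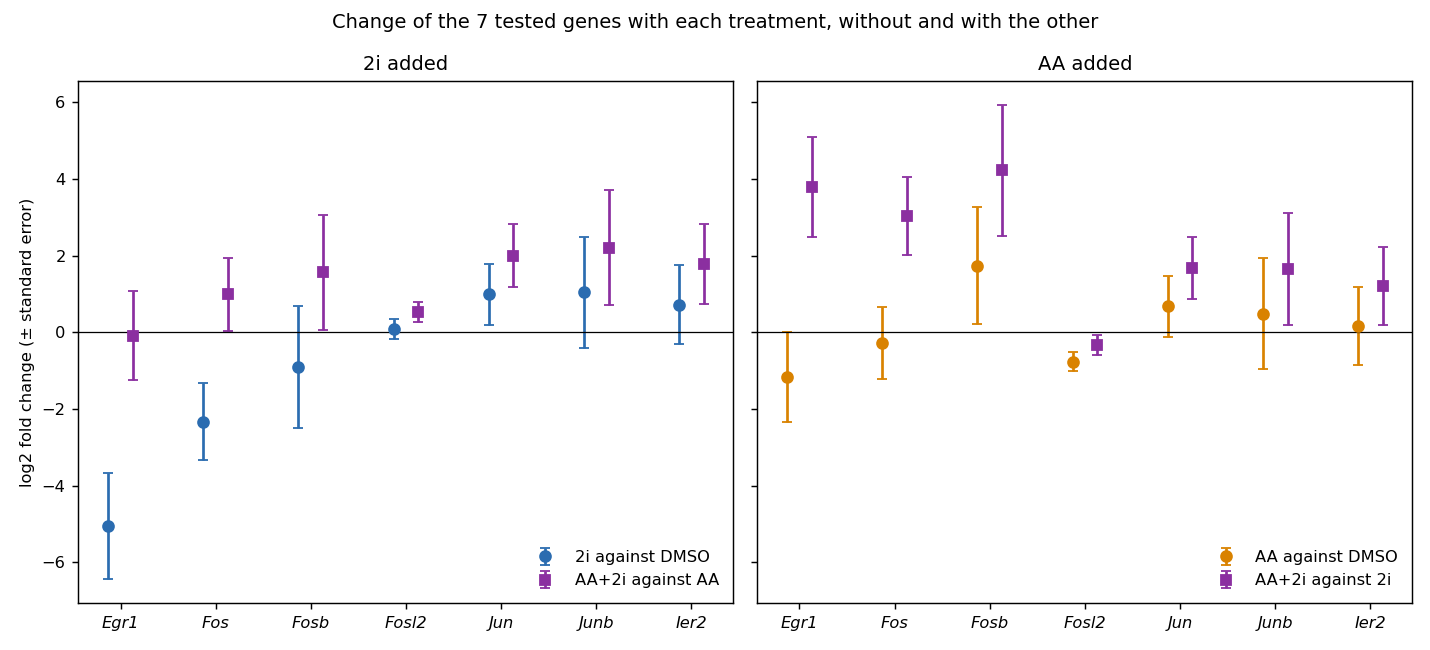
Log2 fold changes with their standard errors for the 7 tested genes when 2i was added (left) or AA was added (right), each without and with the other agent. In this edgeR fit Egr1 is at -5.05 for 2i against DMSO and at -0.09 for AA+2i against AA. The second value ran from -0.09 to -2.12 across fits that left out no library, and was 0.49 without AA+2i A. The standard errors of Junb are 1.44 to 1.5.

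AA against DMSO asked what AA did alone. Egr1 differed by -1.46, -1.64 and -0.02 in A, B and C, a fitted change of -1.17 ± 1.17. Fosl2 differed by -0.44, -0.96 and -0.79, with a fitted change of -0.76 ± 0.26 (adjusted p = 0.286). The other 5 ranged from -0.28 for Fos to 1.74 for Fosb. By edgeR 0 of 7 were called, against 1.34% of all genes, DESeq2 called 0, and 1 (Fosl2) had an unadjusted p under 0.05, as 9.43% of all genes did. On the log2 CPM scale Egr1 and Fosl2 had groups that did not overlap, as 4.84% of all genes had in this direction, but in TPM the highest library with AA (32.05) and the lowest with DMSO (31.9) met for Egr1. Fosl2 was called only where the letter block and the correction for GC content were combined (-0.81 ± 0.19, adjusted p = 0.0265), a setting in which 5.28% of all genes fell.

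AA added to 2i went the other way for Egr1. Its level was higher with AA+2i than with 2i in each letter, by 0.61, 2.11 and 4.63, as was that of Fos, by 0.81, 1.62 and 3.91, and of Fosb, by 1.40, 0.96 and 6.53. The letters were not shown to pair these libraries, and the groups overlapped for each of the 7 genes. Egr1 in AA+2i A (0.35 TPM) lay below 2i B (2.72) and 2i C (2.32). The fitted changes of Egr1, Fos and Fosb were 3.79 ± 1.31, 3.04 ± 1.02 and 4.23 ± 1.71. Their adjusted p values were 0.289, 0.269 and 0.416, and 0 of 7 genes were called, against 0.91% of all genes, although these 3 had an unadjusted p under 0.05, as 9.54% of all genes did. With limma on log2(TPM + 1) the changes were smaller, at 2.03 for Egr1, 2.00 for Fos and 1.65 for Fosb. DESeq2 called 1, Fos, with an adjusted p of 0.0235, where it called 2.57% of all genes higher. Without AA+2i C, the changes were 1.76 ± 1.12 for Egr1, 1.21 ± 0.81 for Fos and 1.36 ± 1.47 for Fosb, and Junb and Ier2 were negative, at -0.57 ± 1.48 and -0.41 ± 0.98.

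The difference between the 2 effects of AA was tested as an interaction. It was 4.96 ± 1.75 for Egr1 (unadjusted p = 0.016 in edgeR's fit across all genes) and 3.32 ± 1.37 for Fos (0.034), but both adjusted values were 1.0. With limma on log2(TPM + 1) it was 3.08 ± 1.49 for Egr1 (unadjusted p = 0.0637) and 2.25 ± 1.34 for Fos (0.121), and at the smaller pseudocount 3.45 ± 2.01 (0.114) and 2.34 ± 1.39 (0.12). Of the 7 genes 0 were called, by edgeR or DESeq2, against 0.0149% of all genes, and 2 had an unadjusted p under 0.05, as 2.31% of all genes did. Without AA+2i C, the interaction was 2.93 ± 1.49 for Egr1 and 1.48 ± 1.09 for Fos.

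With both agents against DMSO, 1 of the 7 genes, Jun, had groups that did not overlap. It was higher by 1.93, 0.72 and 3.94 in A, B and C, and all 3 libraries with AA+2i lay above all 3 with DMSO, as for 15.4% of all genes. The fitted change was 2.68 ± 0.84 (adjusted p = 0.0792), so 0 of 7 were called against 8.34% of all genes. Jun had the only unadjusted p under 0.05 of the 7, where 24.8% of all genes had one, and DESeq2 called 1, Jun (adjusted p = 0.00636), along with 6.71% of all genes in this direction. With a correction for the GC content of transcripts it was at 1.54 ± 0.49 (adjusted p = 0.045, with 8.74% of all genes called higher), and it was also called with the letter block and with both, where 15.3% and 17.3% of all genes rose. It was at 1.25 ± 0.67 without AA+2i C (adjusted p = 0.448). Egr1 was at -1.26 ± 1.17, at -2.23 with the block, at -2.65 with limma on log2(TPM + 1), and at -3.28 ± 1.26 without that library. Without it, Fos went from 0.72 to -1.11, Fosb from 3.31 to 0.46, Junb from 2.70 to 0.49 and Ier2 from 1.94 to 0.32, and the median of the 7 from 1.94 to 0.32.

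The spread among replicates was itself a feature of these genes. With AA+2i, the standard deviation of log2 CPM was 3.75 for Egr1, 2.41 for Fos, 3.14 for Fosb, 2.46 for Junb, 1.73 for Ier2 and 1.51 for Jun, where the median of all tested genes was 0.30. For each of these 6 it exceeded that of at least 99.3% of tested genes. For some it rested on C: between A and B alone it was 0.02 for Jun, 0.59 for Ier2 and 1.41 for Junb, more than 5.39%, 93.5% and 99.6% of tested genes, while Egr1 stayed at 3.51, Fosb at 1.98 and Fos at 1.74, against a median of 0.16. With DMSO, Egr1 varied by 0.80, more than 80.7% of genes, and with AA by 0.26, more than only 25.8%. Fosl2 varied by 0.08 with AA and 0.15 with AA+2i, less than the median gene, but by 0.47 with 2i, more than 73.9% of genes.

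The base composition of the transcripts moved with this spread for some genes and not for others. Libraries differed in how strongly they favoured GC-rich transcripts, and Junb, Ier2 and Jun were rich in GC, at 62.6%, 60.9% and 59.2%, against a median of 51.0%. At the GC content of Junb, the curve fitted to all genes ran from -1.89 in DMSO A to 1.46 in AA+2i C on the log2 scale. When each library's curve was taken out, the standard deviation over 12 libraries went from 2.12 to 1.21 for Junb, from 1.43 to 0.70 for Ier2 and from 1.28 to 0.77 for Jun. For Fos (51.9% GC) it stayed at 1.58, and for Egr1 (53.5%) it was 2.86 before and 2.89 after. Over the 11 libraries without AA+2i C, these values went from 1.79 to 0.94 for Junb, from 1.13 to 0.46 for Ier2 and from 0.88 to 0.44 for Jun, and from 1.35 to 1.37 for Fos. The rise of AA+2i C was smaller but still there: 5 of the 7 genes were highest in that library before and after, while the share of all genes went from 22.3% to 17.1%.

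**Figure D3:**
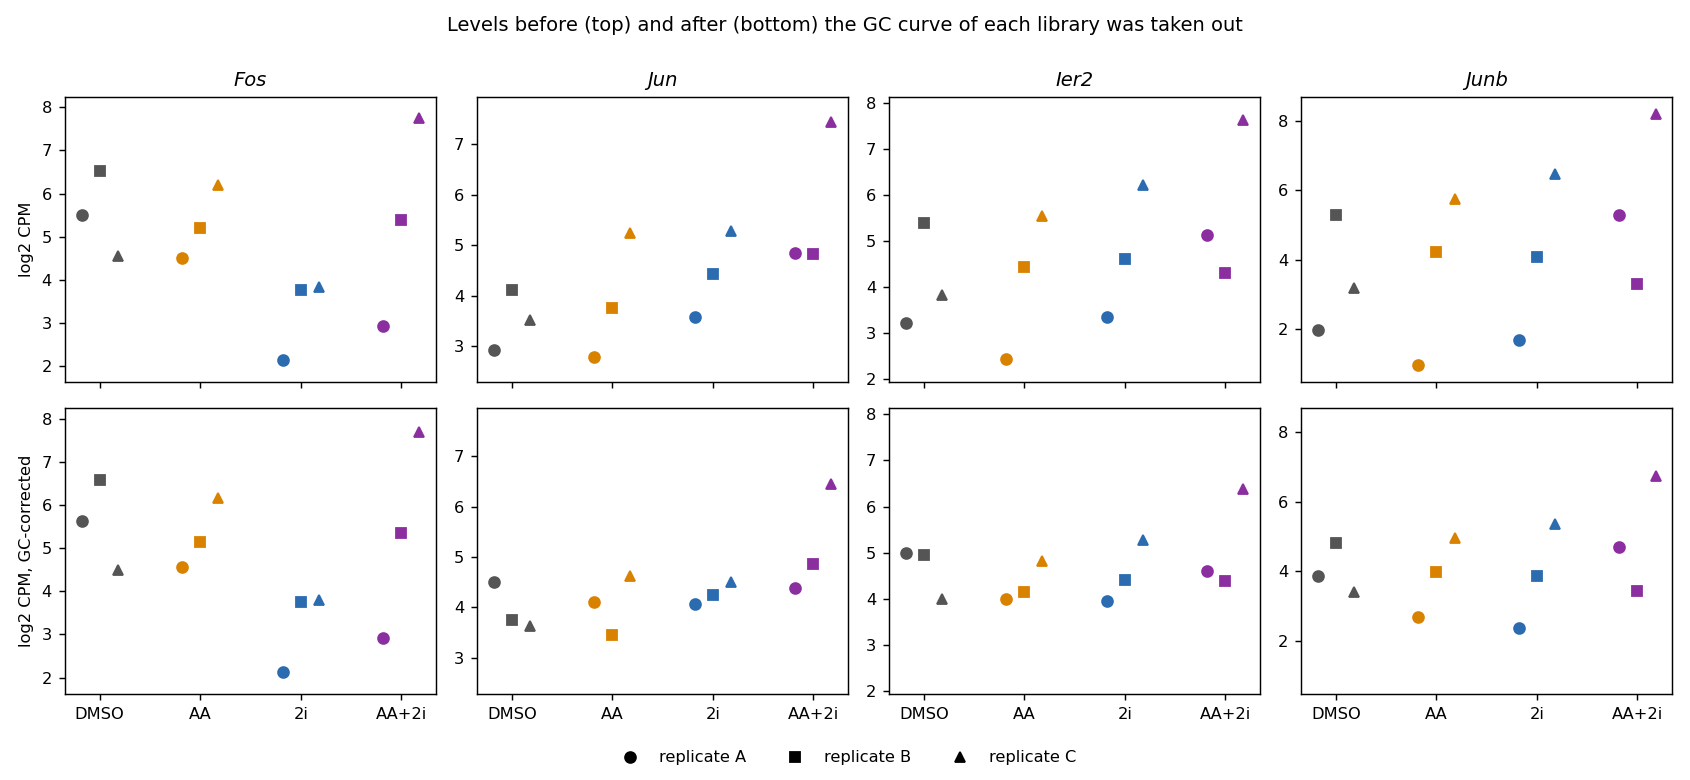
Log2 CPM of Fos, Jun, Ier2 and Junb in the 12 libraries as measured (top) and after each library's GC curve was taken out (bottom), with 1 symbol per replicate letter. The spread of Jun, Ier2 and Junb narrows and that of Fos does not, and AA+2i C is the highest library in all 8 panels.

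Because AP-1 is a dimer, the transcripts of each family were also summed. The Fos family was mostly Fos: it made up 68.6% to 87.7% of the sum with DMSO and 80.7% to 84.6% with AA. With 2i it made up 33.0%, 61.4% and 50.1%, while Fosl2 overlapped its DMSO levels, and in 2i A and AA+2i A Fosl2 was the largest part, at 65.3% and 49.9%. In the Jun family, which for this sum includes Jund, Junb or Jund was the most abundant in every library, and Jun made up 12% to 35.2%. The ratio of Fos-family to Jun-family transcripts was 1.75, 1.45 and 0.873 with DMSO, while AA gave 1.5, 0.848 and 0.715. It was 0.461, 0.404 and 0.135 with 2i, below all 6 of these, whereas AA+2i gave 0.142, 0.981 and 0.339. The levels of Jun and Junb moved with GC content, whose part in this ratio was not tested.

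**Figure D4:**
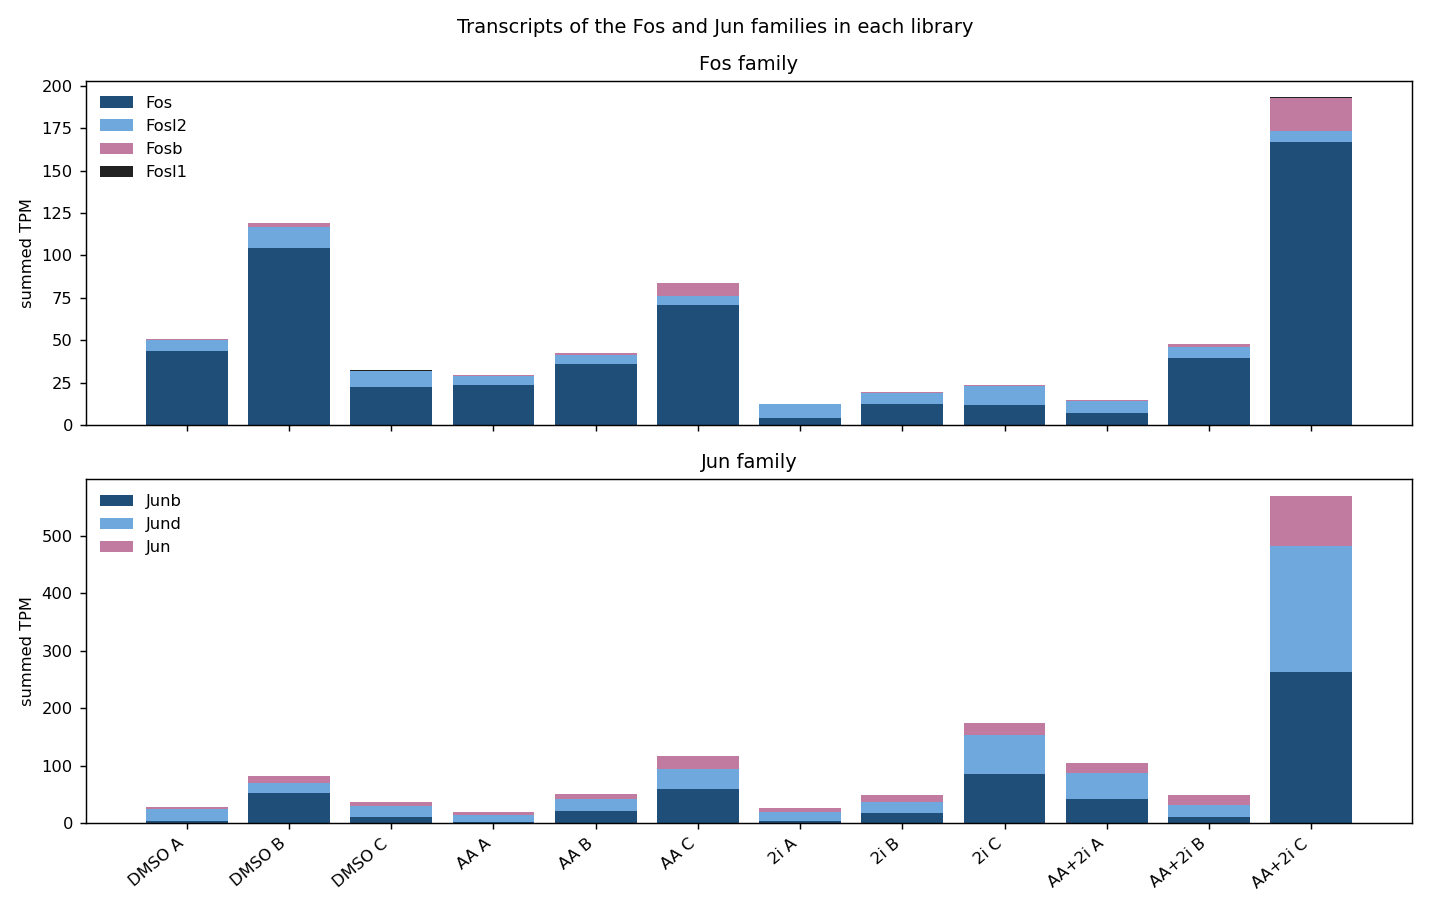
Summed TPM of the Fos family (top) and the Jun family with Jund (bottom) in each library, stacked by gene. The Fos sum is 12.3 to 23.6 TPM in the 3 libraries with 2i, and AA+2i C has the highest sum in both panels, 193 and 570 TPM.

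Genes under ERK control were read in the same libraries. Dusp6, a phosphatase that ERK signalling induces and that switches ERK off, was at 72.5, 58.1 and 56.9 TPM with DMSO and 75.2, 58.0 and 59.9 with AA. It was at 7.14, 6.68 and 6.85 TPM with 2i and 6.22, 6.19 and 6.63 with AA+2i. It fell by 3.00 ± 0.21 with 2i against DMSO (adjusted p = 4.63e-05, edgeR) and by 3.15 ± 0.21 with AA+2i against AA (5.01e-05). All 6 libraries with 2i were within 1 TPM of each other for Dusp6, while Egr1 in the same 6 ran from 0.22 to 54.8 TPM and Fos from 4.06 to 167. The highest of the other 5, AA+2i C left out, was 12.6 TPM for Egr1 and 39.3 TPM for Fos.

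**Figure D5:**
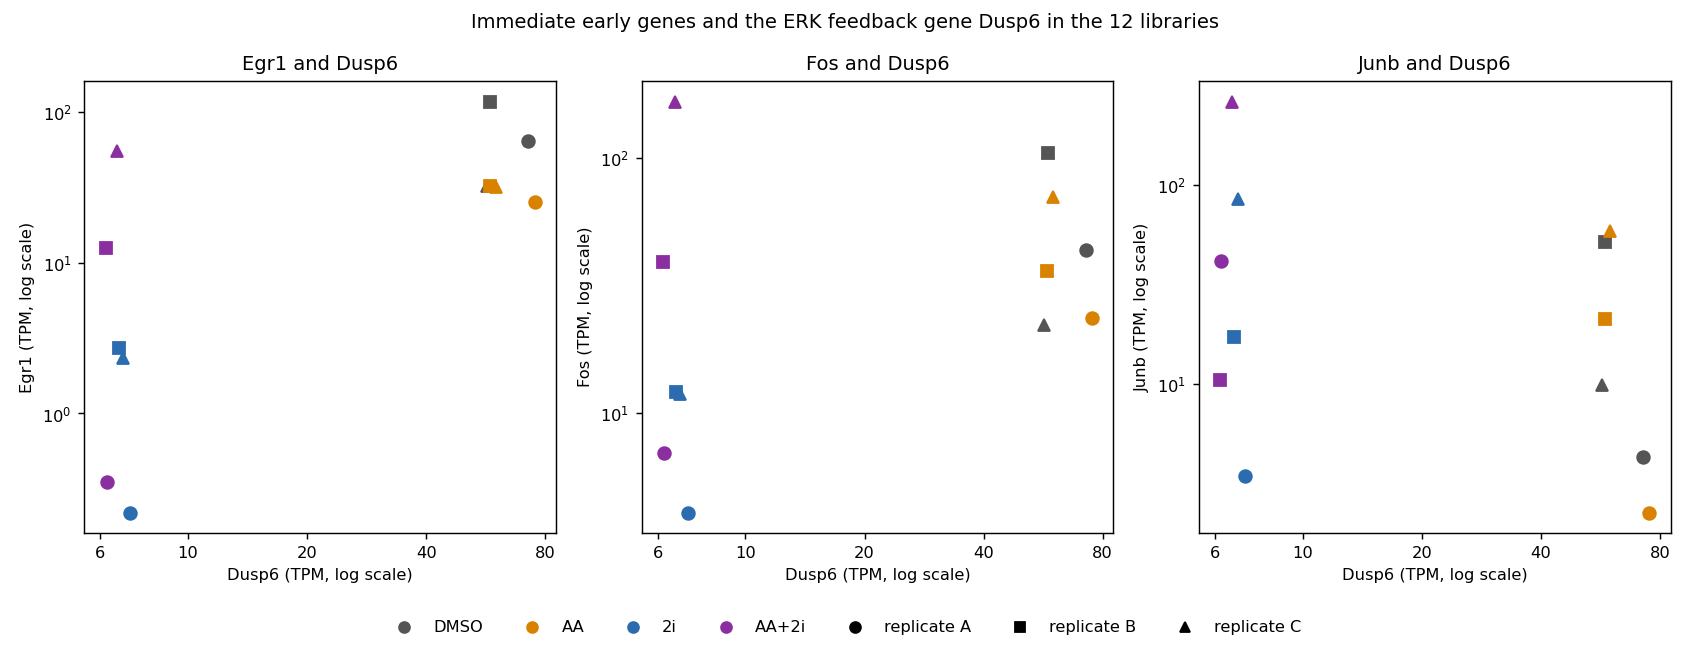
Egr1, Fos and Junb against Dusp6 in the 12 libraries, in TPM on log axes, coloured by condition with 1 symbol per replicate letter. The 6 libraries with 2i form a column at 6.19 to 7.14 TPM of Dusp6, and along that column Egr1 runs from 0.22 to 54.8 TPM.

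Of 16 listed ERK feedback genes and Ets targets, all tested, 5 fell and 0 rose with 2i against DMSO, where 2.83% of all genes fell and 1.59% rose: Dusp4, Dusp6, Spry1, Spry4 and Etv1. With AA+2i against AA, 7 fell and 0 rose (3.29% and 2.81% of all genes), the same 5 with Etv5 and Ccnd1. Without AA+2i C 4 fell, Dusp4, Dusp6, Spry1 and Spry4. The first comparison had 10 fallen and 1 risen with the letter block (8.18% and 5.12% of all genes) and also with the GC correction (7.29% and 4.33%), and the second 10 fallen and 0 risen with either (8.15% and 8.1% of all genes fell). The medians of the list were -0.70 and -0.79, against -0.02 and -0.01 for all genes. Dusp4, another ERK phosphatase, fell by 1.58 ± 0.20 and 2.32 ± 0.21, and was also lower with AA+2i than with 2i, by 1.46 ± 0.20 (adjusted p = 0.00729). Spry4, an inhibitor of receptor tyrosine kinase signalling, fell by 1.22 ± 0.18 and 1.08 ± 0.18. Of 19 tested genes that act upstream, kinases and ternary complex factors among them, 0 were called with 2i against DMSO, and 1, the ternary complex factor Elk3, fell with AA+2i against AA (by 1.21 ± 0.28, adjusted p = 0.0271), where 0 were called without AA+2i C. As a check of the GSK inhibitor, 3 of 6 Wnt response genes rose in both comparisons and 0 fell, with Axin2 up by 5.83 ± 0.77 and 5.25 ± 0.72.

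The corepressors Nab1 and Nab2, which bind Egr proteins and are themselves Egr targets, were both lower with 2i without passing the test. Nab1 was at -0.90 ± 0.32 and Nab2 at -1.36 ± 0.58 against DMSO (adjusted p = 0.176 and 0.265), and at -0.65 ± 0.32 and -1.53 ± 0.58 with AA+2i against AA. Nab2 was at 11.6, 36.1 and 29.9 TPM with DMSO and 4.78, 8.0 and 12.4 with 2i. Only 2i C, at 12.4 TPM, exceeded a library with DMSO, A. With the letter block, where 8.18% of all genes fell, both fell in 2i against DMSO.

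Other immediate early genes, a list of 34 with 31 tested, split in direction. With 2i against DMSO 1 rose and 2 fell, where 1.59% and 2.83% of all genes did, and with AA+2i against AA 2 rose and 3 fell, where 2.81% and 3.29% did, with list medians of -0.11 and 0.25 (-0.02 and -0.01 for all genes). Without AA+2i C the second comparison left 1 higher, Rhob, and 1 lower, Maff. With the letter block 4 rose and 3 fell, then 6 rose (6.72% of all genes) and 5 fell, and with the GC correction 1 rose and 5 fell, then 3 rose (6.28% of all genes) and 5 fell. Maff, a small Maf transcription factor, fell by 1.27 ± 0.27 and 1.58 ± 0.28, and Gem, a small GTPase, by 1.40 ± 0.28 and 1.34 ± 0.27. Rhob, another GTPase, rose by 2.71 ± 0.58 and 3.51 ± 0.59. Arc, an immediate early gene of neurons, was at -3.32 ± 1.02 with 2i against DMSO (adjusted p = 0.105). With AA against DMSO and AA+2i against 2i, 0 of 31 were called, where 1.34% and 0.91% of all genes were.

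Among 9 tested relatives of the AP-1 proteins, 0 were called in 2i against DMSO or AA+2i against AA, where 4.42% and 6.1% of all genes were. Jund, the third Jun gene, was at 15.9, 19.1 and 67.8 TPM with 2i and 44.9, 21.1 and 219 with AA+2i, and its changes were 1.05 ± 0.86 and 2.35 ± 0.89 (adjusted p = 0.571 and 0.18). Of 14 tested AP-1 target genes, 0 were called with 2i against DMSO. With AA+2i against AA 1 fell, the growth factor gene Hbegf (by 1.44 ± 0.34, adjusted p = 0.0295), where 3.29% of all genes fell, and 0 were called without AA+2i C.

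Genes of heat shock and handling can be induced together with immediate early genes when cells are disturbed. Of the 8, 4 were highest in AA+2i C, as 22.3% of all tested genes were in log2 CPM. They were the inducible chaperone genes Hspa1a (2.52 TPM, against 0.05 to 0.95 in the other 11 libraries) and Hspa1b (10.2 TPM, against 0.51 to 4.78), Dnajb1 (66.8 TPM, against 35.8 to 61.8) and Hspb1 (1390 TPM, against 54.2 to 996). The other 4, led by the constitutive chaperone gene Hspa8, were not, and Hsph1 and Hspd1 were lowest there. The summed level of the 8, set mostly by Hspa8, was 6400 TPM in AA+2i C, within the 5210 to 7660 TPM of the other 11. By edgeR 0 of 8 were called in any comparison, where 0.0149% to 8.34% of all genes were. With AA+2i against DMSO Hspa1a was at 2.69 ± 0.89, Hspa1b at 2.49 ± 0.70 and Hspb1 at 2.14 ± 0.86 (adjusted p = 0.0931, 0.0511 and 0.157). Each had an unadjusted p under 0.05, as 24.8% of all genes did. With the letter block, where the letters were not shown to pair the libraries, 3 rose, Hspa1b, Hspb1 and Dnajb1, where 15.3% of all genes did. The GC correction gave 1, where 8.74% of all genes rose. With AA+2i against AA, Hspb1 rose with the block, and with 2i against DMSO Hspe1 did (by 0.76 ± 0.19, adjusted p = 0.0318, edgeR). Hspa1b was at 1.48 ± 0.59 with AA+2i against DMSO when AA+2i C was left out. Fibroblast markers summed to 9.38 TPM in AA+2i C, the lowest of the 12. With AA+2i against AA 1 of the 8 tested, Col3a1, rose from under 1 TPM, where 2.81% of all genes rose. Of the 7 tested marker genes of the line, 1, Cdh1, rose with AA against DMSO (by 1.13 ± 0.20, adjusted p = 0.018, edgeR), where 1.34% of all genes were called. Cdh1 and Epcam rose with AA+2i against 2i (by 1.21 ± 0.20 and 1.35 ± 0.26), where 0.91% were called. Lin28a fell with AA+2i against AA (by 2.78 ± 0.62), where 3.29% of all genes fell. Without AA+2i C, 0 fibroblast markers were called, Lin28a was not, and 1 marker of the line rose with AA+2i against 2i. The part of these genes, or of a small number of cells of another kind, in the levels of Egr1, Fos and Fosb was not tested.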

How the data were processed

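RNA was sequenced in 12 libraries, 3 per condition. After trimming and quality filtering, the authors aligned reads to RefSeq genes of mm9 and quantified them with RSEM (Bowtie and RSEM 1.2.4 in the submitters' processing notes). The deposited expected counts are unnormalized RSEM estimates and can be fractional. In the deposited TPM, levels are scaled per library and by transcript length. 1 malformed TPM cell, of another gene, was treated as missing. Totals of 16173322 to 54392719 counts set the counting precision of a single library. The floor of 3 counts covers counting error only, whereas the standard errors also hold the spread between libraries.

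Rounded expected counts entered edgeR 4.0.16 (R 4.3.3; RLE factors, quasi-likelihood, 1 mean per condition, 8 residual degrees of freedom). Genes needed 10 counts in 3 libraries (13400 of 20325). Standard errors are the log2 fold change over the square root of F. Log2 CPM used a prior count of 2. The alternatives were TMM factors, DESeq2 1.42.0, no filter, 10 counts in every library, only the groups compared, the letter as a block, a GC correction (loess of span 0.4 per library, with GC content known for 99.3% of tested genes), both together, limma 3.58.1 on log2(TPM + 1) and log2(TPM + 0.1), and leaving out each letter. Leaving out single libraries was added after seeing the data. The share of all genes called is not given for those fits, so a call lost there cannot be weighed against it. The fits were tested on simulated data.

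The letters were taken to pair the libraries of DMSO with those of AA and of 2i, since libraries of the same letter deviated together from their group means (r from 0.608 to 0.894 and from 0.177 to 0.787), but not those of AA+2i (DMSO and AA+2i, r from -0.588 to 0.535). The 10 genes and all lists were chosen with earlier results of these data known. From each other list, the text names at most 4 tested genes with the smallest p in 2i against DMSO, any that passed in AA against DMSO or AA+2i against 2i, and marker genes. Etv1, Etv5, Ccnd1, Hspa1a, Dnajb1, Hsph1, Hspd1, Hspa8 and the sole called genes of a list were named after their values were seen. Promoters of Egr3, Fosl1, Ier2 and Egr1 were not used here.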

Additional observations from a re-analysis of the deposited data

Results flagged for a closer look

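For 2 genes, the 3 letters moved one way under a contrast without the second agent and all moved the opposite way with it. The difference between the 2 contrasts was not tested by this criterion, and the letters were not shown to pair AA+2i with the other conditions. Fosb was lower with 2i than with DMSO in A, B and C (log2 differences of -1.35, -0.79 and -0.61) and higher with AA+2i than with AA (by 0.08, 1.21 and 1.62), and the 2 mean differences lay 1.89 apart. The fitted interaction of Fosb was 2.48 ± 2.18 (unadjusted p = 0.278 in edgeR's fit across all genes, adjusted 1.0), and -0.38 ± 1.98 without AA+2i C. Several of these values rest on about 10 counts or fewer: Fosb had 8 counts in DMSO A, 3 in 2i A and 10 in AA A.

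Egr1 was lower with AA than with DMSO in all 3 letters (log2 differences of -1.46, -1.64 and -0.02) and higher with AA+2i than with 2i in all 3 (by 0.61, 2.11 and 4.63). The 2 mean differences lay 3.49 apart. The fitted interaction had an unadjusted p of 0.016 and an adjusted p of 1.0 in edgeR. In C, the change with AA alone was close to 0, and in A the pair with 2i rests on 7 and 11 counts.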

How the results depend on the processing

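With 3 libraries per condition and a spread this wide, even changes well over their standard errors were not called. Egr1 at -5.05 ± 1.39 in 2i against DMSO and Jun at 2.68 ± 0.84 in AA+2i against DMSO are examples. No result of the 7 genes passed in the fit used for the report. The number called with 2i against DMSO became 1, Egr1, with DESeq2, with only the groups compared, with the GC correction and with limma at either pseudocount, and 0 to 1 when a letter or library was left out. With the letter as a replicate block it was also 1, and with the GC correction and the replicate block it was 2, Egr1 and Fos. Jun was the 1 gene called in AA+2i against AA with the replicate block (1.89 ± 0.47, adjusted p = 0.0253, edgeR) and with the block and GC correction (1.30 ± 0.41), where the letters were not shown to pair the libraries. In 11 of 12 libraries the closest library of another condition had the same letter. In AA+2i against DMSO, 1 was called, Jun, with DESeq2, the replicate block, the GC correction and both together. 1 was called in AA+2i against 2i (Fos, DESeq2), and 1 in AA against DMSO (Fosl2, GC correction and replicate block). The block changed no other call among the 10 genes. The cause of these changes was not tested.

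Directions that turned belonged to changes that were not called. With the GC correction, Ier2 went to -0.05 in 2i against DMSO and -0.33 in AA against DMSO. With the replicate block, AA against DMSO went to -0.33 for Junb and -0.34 for Ier2, and AA+2i against DMSO to -0.18 for Fos. With both together, 2i against DMSO went to -0.00 for Fosl2, -0.34 for Junb and -0.25 for Ier2, AA against DMSO to -0.39 for Junb and -0.50 for Ier2, and AA+2i against DMSO to -0.24 for Fos. With limma on log2(TPM + 1) and log2(TPM + 0.1), Fosl2 went to -0.11 and -0.12 in 2i against DMSO, Fos to -0.09 and -0.12 in AA+2i against AA and to -0.34 and -0.38 in AA+2i against DMSO, and Ier2 to -0.02 and -0.04 in AA against DMSO.

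Leaving out letters or single libraries gave, in 2i against DMSO, -2.58 to 0.60 for Fosb (positive without DMSO B), -0.22 to 0.39 for Fosl2 (negative without DMSO A or 2i C), -1.11 to 2.83 for Junb and -0.58 to 1.86 for Ier2 (both negative without 2i C). In AA+2i against AA it gave -2.11 to 0.49 for Egr1 (positive without AA+2i A or B), -0.83 to 1.57 for Fos, -1.29 to 3.87 for Fosb and -0.01 to 3.45 for Junb (each negative without AA+2i C). In AA against DMSO it gave -1.21 to 0.49 for Fos (positive without DMSO B or AA A), -0.90 to 3.70 for Fosb, -0.29 to 1.25 for Jun, -1.06 to 2.10 for Junb and -0.93 to 1.16 for Ier2 (each negative without AA C, and Ier2 also without DMSO A or DMSO C). In AA+2i against 2i it gave -0.49 to 0.00 for Fosl2 (0.00 without 2i C), -0.57 to 3.51 for Junb and -0.41 to 2.28 for Ier2, and in AA+2i against DMSO -1.47 to 1.69 for Fos, each lowest value without AA+2i C or letter C, other than for Fosl2. For the interaction it gave -0.38 to 4.78 for Fosb, -0.43 to 1.93 for Jun, -1.07 to 3.02 for Junb (negative also without DMSO B) and -0.58 to 2.12 for Ier2, each lowest without AA+2i C.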
